A study of Homo sapiens with 6 samples.

Results

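EGR1, FOS and FOSB are immediate early genes, and they were taken as the rows bearing those symbols in the authors' table of genes that differed between Panc-1 cells given Gli3T and cells given an empty vector. All 3 were found, each with 1 probe set, among the 405 genes of that table. Because the authors had drawn the table up from the same arrays, being listed there is no finding, and the p-values given for the 3 genes describe these arrays and are no independent evidence of a difference. Panc-1 cells are a long-established line grown from a human pancreatic duct tumour. The cells were transfected with pCIG alone, which is the empty vector, or with pCIG-Gli3T, which expresses a repressor form of Gli, the transcription factors of the hedgehog pathway. Both vectors carried GFP, GFP-positive cells were collected by sorting at 24 h, and total RNA was hybridised to 6 Affymetrix arrays, 3 in either group. Whether the 3 arrays of a group stand for separate cultures is not stated, and p-values then measure only a spread that may be technical.

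Immediate early genes are switched on within minutes of a growth factor, stress or calcium signal, from transcription factors already present in the cell, and their messages are short-lived. Much of this signal runs through RAS and the ERK kinases to the factors SRF, ELK1 and CREB1 on the promoters. EGR1 is a zinc finger transcription factor that binds GC-rich promoters. FOS and FOSB are leucine zipper proteins that pair with JUN proteins to form AP-1, and the FOSB gene also makes a truncated, longer-lived form by splicing. The arrays gave 1 value per gene here, so splice forms were not separated.

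The promoters of the 3 genes are shown because the 3 genes are described together and each window holds letters of a signal-responsive element. The windows are the 250 bases before the gene start, from RefSeq on GRCh38.p14. All lie on the plus strand, at chr5:138465229-138465478 for EGR1, chr14:75278578-75278827 for FOS and chr19:45467746-45467995 for FOSB. Capitals mark matches, on either strand, to the CArG box, which SRF binds, or to TGACGT, the core of the element that CREB1 binds.
EGR1: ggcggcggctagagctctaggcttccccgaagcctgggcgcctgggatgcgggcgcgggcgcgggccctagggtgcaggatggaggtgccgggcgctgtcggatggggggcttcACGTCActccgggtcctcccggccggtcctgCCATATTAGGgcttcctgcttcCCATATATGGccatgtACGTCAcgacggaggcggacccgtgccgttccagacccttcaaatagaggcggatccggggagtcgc
FOS: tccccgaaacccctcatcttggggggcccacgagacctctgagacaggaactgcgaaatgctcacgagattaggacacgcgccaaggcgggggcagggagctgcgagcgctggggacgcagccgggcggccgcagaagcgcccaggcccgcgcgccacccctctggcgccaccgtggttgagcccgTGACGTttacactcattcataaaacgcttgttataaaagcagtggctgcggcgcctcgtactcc
FOSB: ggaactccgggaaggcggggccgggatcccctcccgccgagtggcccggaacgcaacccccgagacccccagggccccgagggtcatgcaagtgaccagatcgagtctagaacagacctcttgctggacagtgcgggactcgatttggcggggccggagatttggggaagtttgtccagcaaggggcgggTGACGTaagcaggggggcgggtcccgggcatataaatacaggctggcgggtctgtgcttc
The EGR1 window held 2 CArG boxes, CCATATTAGG beginning 105 bases and CCATATATGG beginning 83 bases before the gene start. It also held 2 copies of TGACGT on the minus strand, printed as ACGTCA, beginning 136 and 67 bases before the start. FOS and FOSB each held 1 copy of TGACGT on the plus strand, 64 and 60 bases before the start. A CArG box was present in 1.16% and TGACGT in 7.10% of the 35116 promoter windows of the same length. The longer form TGACGTCA, which contains TGACGT and occurs in 1.65% of windows, the AP-1 site TGAGTCA (4.20%) and the Gli site GACCACCCA (0.199%) had no match in the 3 windows. A match is a description of the letters, and no match says only that those letters are not in these 250 bases.

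EGR1 fell in the arrays labelled Gli3T. Its log2 expression was 11.67, 11.69 and 11.80 in empty vector replicates 1, 2 and 3, and 10.85, 10.78 and 10.90 in Gli3T replicates 1, 2 and 3. The groups were far apart relative to their spread, with 0.77 log2 between the lowest empty-vector array and the highest Gli3T array. The means were 11.72 ± 0.07 (SD, n = 3) and 10.84 ± 0.06 (SD, n = 3). The log2 difference was -0.88 ± 0.08 (SE; 95% interval -1.07 to -0.68), which is 1.84-fold lower, with an adjusted p of 0.0132 by limma over all 32321 probe sets. Each array averages many sorted cells, so fewer expressing cells and less message per cell cannot be told apart, for this gene or any other here.

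FOS fell as well, and its empty-vector arrays were less alike. They read 9.86, 10.19 and 10.10 in replicates 1, 2 and 3, against 9.28, 9.22 and 9.34 in the Gli3T arrays. Empty vector replicate 1 was the low array of its group, yet it stayed 0.52 log2 above the highest Gli3T array. The log2 difference was -0.77 ± 0.11 (SE; 95% interval -1.03 to -0.52), a 1.71-fold lower level, with an adjusted p of 0.0263 by limma.

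FOSB did not pass the threshold, which was an adjusted p under 0.05, though its groups did not overlap. It read 9.72, 9.40 and 9.34 in empty vector replicates 1, 2 and 3, and 8.73, 8.97 and 8.75 in the Gli3T arrays. Here empty vector replicate 1 was the high array of its group, the opposite of its place for FOS, and the gap between the groups was 0.37 log2. The log2 difference was -0.67 ± 0.13 (SE; 95% interval -0.98 to -0.37), or 1.59-fold, with an adjusted p of 0.0514 by limma. In the authors' deposited table the FOSB row begins with 0.0481, the EGR1 row with 0.0133 and the FOS row with 0.0261. No header says what these numbers are. Over the 135 rows that begin in this way and are in the value table, they ranked nearly as the adjusted p computed here did (Spearman 0.997 across genes, which are not independent) and were 0.86 to 1.04 times its size.

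**Figure D1:**
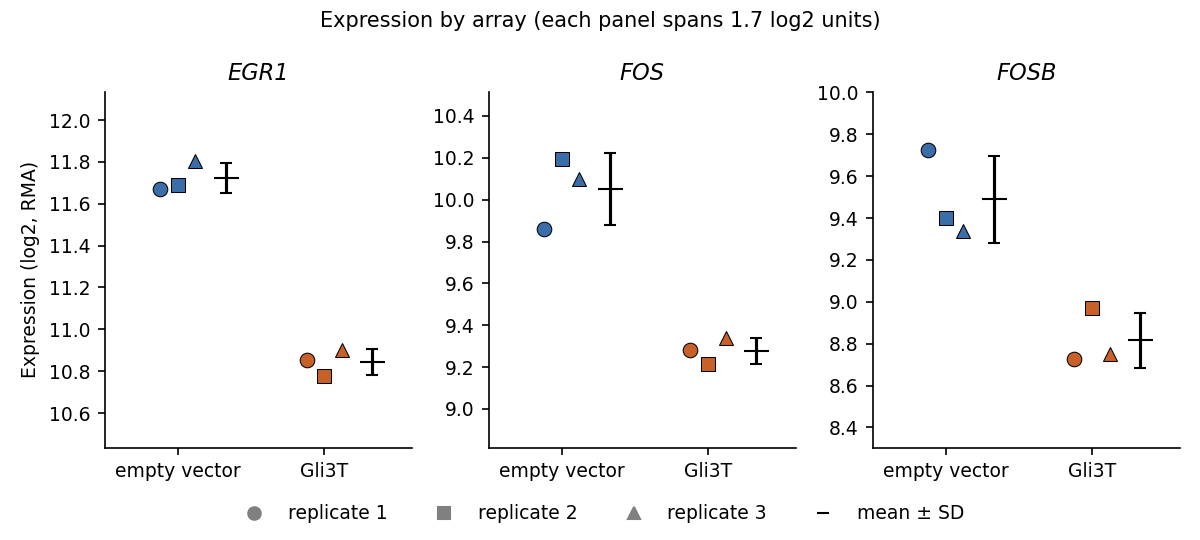
Log2 expression (RMA, vertical axis) of EGR1, FOS and FOSB in each array, by group, with marker shape giving the replicate number and bars the mean ± SD (n = 3). In every panel the 3 Gli3T arrays lie below the 3 empty-vector arrays. Empty vector replicate 1 is the low array of its group for FOS, at 9.86, and the high one for FOSB, at 9.72.

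So 2 of the 3 genes were called lower, against 344 of 32321 probe sets (1.06%) called lower, 1.40% called higher and 2.47% called in either direction. All Gli3T arrays lay below all empty-vector arrays for the 3 genes, as they did for 13.0% of probe sets. Since the genes come from a table chosen on this contrast, nothing is read from these counts. An exact two-sided permutation test over the 6 arrays gave p = 0.1 for each of the 3 genes, the smallest p that 3 against 3 arrays allow. The median difference over all probe sets was -0.05 log2. Among the 344 probe sets called lower, 148 had a larger fall than EGR1 and 181 a larger fall than FOS.

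**Figure D2:**
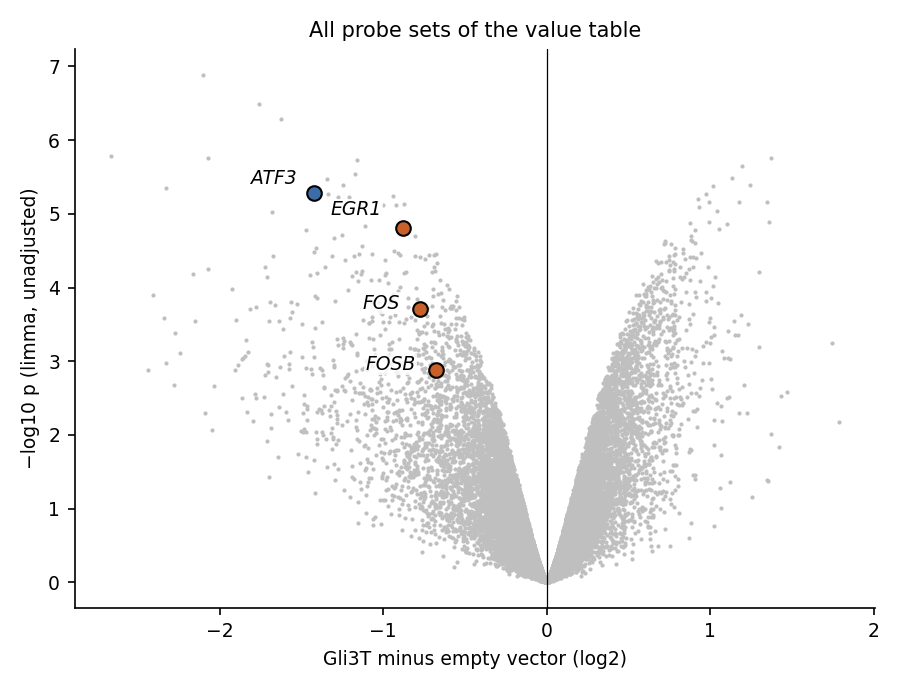
Each grey point is 1 of 32321 probe sets, with the log2 difference Gli3T minus empty vector on the horizontal axis and −log10 of limma's unadjusted p on the vertical axis. EGR1 (-0.88), FOS (-0.77) and FOSB (-0.67) are marked in orange and ATF3 (-1.42) in blue. Many unmarked points lie farther to the left.

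The order of the differences was EGR1, FOS, FOSB, but neighbours in that order did not differ beyond their spread. The EGR1 difference exceeded that of FOS by 0.11 log2 in size (EGR1 minus FOS -0.11, 95% interval -0.36 to 0.15). FOS minus FOSB was -0.10 (95% interval -0.76 to 0.57) and EGR1 minus FOSB was -0.20 (95% interval -0.73 to 0.32). The exact permutation test over the arrays gave p = 0.4, 0.6 and 0.4 for these 3 pairs, each 0.6 after Benjamini-Hochberg adjustment. These intervals are wide, above all for the pairs with FOSB, so equal responses are not shown.

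The spread of the arrays was uneven. The SD of a probe set had a median of 0.18 log2 over the empty-vector arrays and 0.08 over the Gli3T arrays, and the SDs were 0.07 and 0.06 for EGR1, 0.17 and 0.06 for FOS, and 0.21 and 0.13 for FOSB. In the Gli3T group EGR1 and FOS shared the same order of arrays, with replicate 2 low and replicate 3 high, whereas FOSB was high in replicate 2. Empty vector replicate 1 stood apart from the other arrays, with correlations of 0.980 to 0.985 to them, against 0.995 to 0.996 among the Gli3T arrays. It had the lowest of the 6 weights that limma estimated from the spread of each array (0.133). Without it FOS differed by -0.87 (adjusted p = 0.0105 by limma), EGR1 by -0.90 (0.0105), and FOSB by -0.56 and passed the threshold (0.0328), with 2178 probe sets called in place of 798. FOS missed the threshold when empty vector replicate 2 or 3 was left out, at -0.70 (adjusted p = 0.0502) and -0.75 (0.0714). With Gli3T replicate 1, 2 or 3 left out, 0, 1 and 0 probe sets were called in all (3471, 3751 and 3469 at an unadjusted p under 0.05), and EGR1, at -0.88, -0.84 and -0.91, and FOS, at -0.77, -0.74 and -0.80, had adjusted p-values of 0.105 to 0.112 and 0.139 to 0.146.

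**Figure D3:**
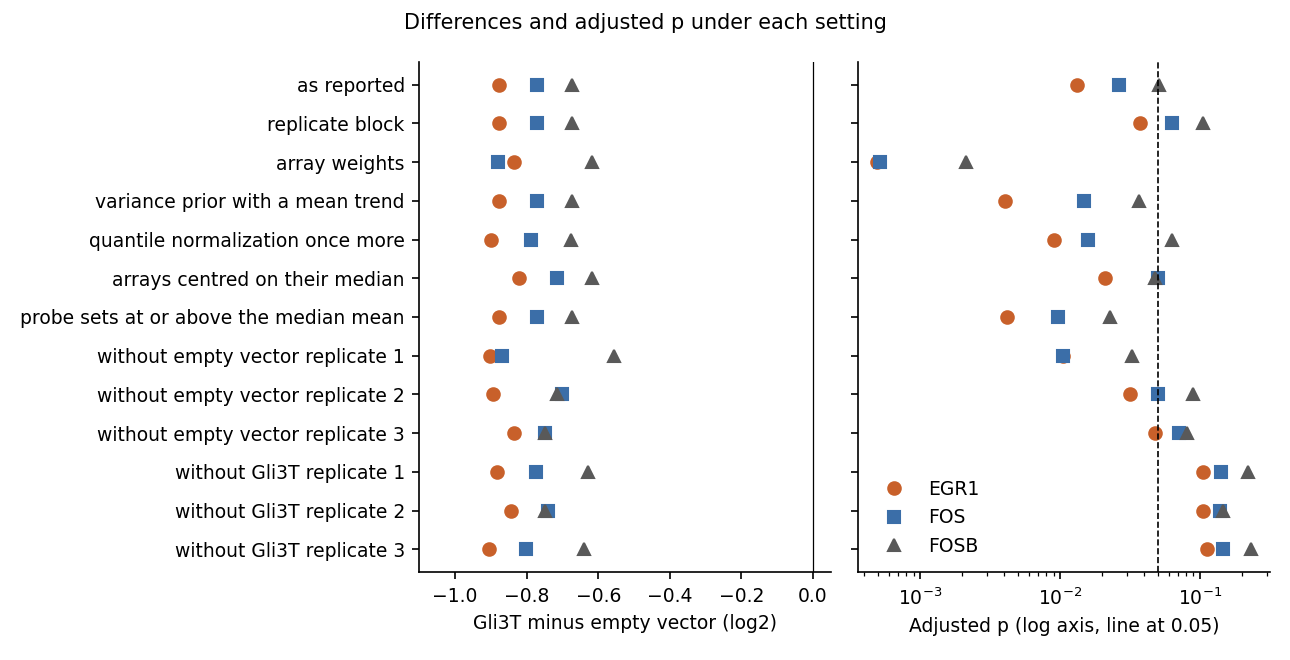
Left, the log2 difference of EGR1, FOS and FOSB, and right, their adjusted p on a log axis with a line at 0.05. Rows are the fit as reported and the alternatives. The stricter threshold, the deposited table's cells and the setting with only probe sets with a gene symbol are not drawn. The differences stay between -0.91 and -0.56, while the adjusted p crosses 0.05 for all 3 genes, for EGR1 where a Gli3T array is left out.

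The labels themselves could be checked only in part. GLI3, from which Gli3T is derived, read 9.20, 9.12 and 9.31 with the empty vector and 8.0, 7.92 and 7.71 in the Gli3T arrays, a log2 difference of -1.34 ± 0.11 (SE). PTCH1, which encodes the receptor for hedgehog and is a classical Gli target, rose by 0.91 ± 0.12 (SE; adjusted p = 0.0224 by limma). PTCH1 was thus not lower in arrays labelled with a Gli repressor, so PTCH1 did not move as the labels would have it. GLI3 was not higher in the arrays that should hold the Gli3T vector. Whether the GLI3 probes match the transfected sequence was not known here, so GLI3 cannot check the labels. Every direction given rests on the labels. Gene names came only from the authors' table, so the markers of duct, acinar, islet, blood, stromal and endothelial cells were not analysed here.

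The genes looked up came from 11 lists. These covered the immediate early response, signalling around it, reported AP-1 or EGR1 targets, message decay, heat shock and the hedgehog pathway. Of their 189 genes 20 could be analysed, with EGR1, FOS, FOSB, GLI3, PTCH1 and the heat shock gene DNAJB4 among them. The remaining genes, such as the JUN genes, FOSL1 and FOSL2, EGR2 to EGR4 and the NAB corepressors, were not analysed here, nor were any of the 21 MAPK feedback genes (DUSP, SPRY and SPRED) or the 13 genes of AU-rich message decay. All 20 had been selected by the authors for a difference, so their counts give no share of responding genes. Of the 20 genes 11 were called lower and 8 higher, and FOSB was not called. The median difference of the 20 was -0.72 log2, against -0.05 over all probe sets, from which nothing is read, since genes of that table differed by at least 0.58 log2 in size.

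ATF3, a leucine zipper protein that can pair with JUN proteins, was the only AP-1 partner analysed, and it fell too. It read 9.85, 9.54 and 9.84 with the empty vector and 8.26, 8.27 and 8.43 in the Gli3T arrays, a log2 difference of -1.42 ± 0.11 (SE; adjusted p = 0.00884 by limma). The lowest empty-vector array stood 1.11 log2 above the highest Gli3T array.

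Other immediate early genes went both ways. Of the 8 analysed besides ATF3, 6 fell and 2 rose. Over all probe sets 1.06% were called lower and 1.40% higher, and 136 of the 398 named genes were lower. The 8 genes come from the authors' table of genes that differed, so nothing is read from these counts. IER3, a further listed gene in the authors' table, had no row in the value table and was not analysed. CXCL8, a neutrophil chemokine listed as IL8, differed by -1.47 ± 0.14 log2 (SE) and SGK1, a serum- and steroid-induced kinase, by -1.17 ± 0.08. PPP1R15A, a phosphatase subunit that restarts translation after stress, differed by -1.14 ± 0.12 and GADD45A, a growth arrest and DNA damage gene, by -0.99 ± 0.11. GEM, a small GTP-binding protein, read 10.36, 10.68 and 10.62 with the empty vector and 9.95, 9.72 and 9.78 in the Gli3T arrays, so that, as for FOS, empty vector replicate 1 was the low array of its group. Its difference of -0.74 ± 0.12 and that of PLK2, a stress-induced polo-like kinase, at -0.70 ± 0.09, were close in size to those of FOS and FOSB. LIF, a cytokine of the interleukin-6 family, and HES1, a repressor better known as a Notch target, rose by 0.62 ± 0.08 and 0.58 ± 0.08. LIF read 9.23 to 9.27 with the empty vector and 9.76 to 9.98 in the Gli3T arrays. Adjusted p-values of these 8 genes ran from 0.00884 to 0.0337 by limma.

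Upstream of the 3 genes, 2 members were analysed of 35 in the list of the ERK cascade and its transcription factors. These were SOS2, which loads RAS with GTP, and CREB1, and both rose. Of the 398 named genes, all from the authors' table, 136 were lower, so nothing is read from both rising. CREB1 read 10.14, 10.50 and 10.44 with the empty vector and 11.23, 11.04 and 11.14 in the Gli3T arrays, a log2 difference of 0.78 ± 0.12 (SE; adjusted p = 0.0306 by limma). SOS2 rose by 0.89 ± 0.15 (adjusted p = 0.0399), with empty vector replicate 1 at 9.65 against 10.04 and 10.24 in replicates 2 and 3. The sign of the CREB1 difference was opposite to that of EGR1, FOS and FOSB, whose promoter windows hold TGACGT. The arrays measure CREB1 message only, not its protein, activity or binding. Whether CREB1 has a part in the differences of the 3 genes was not tested.

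Downstream, 3 of 21 genes reported as targets of AP-1 or EGR1 in other settings were analysed, and all 3 rose. With 136 of the 398 named genes lower, nothing is read from that count either. PDGFA and PDGFB, the chains of platelet-derived growth factor, rose by 0.76 ± 0.13 and 0.72 ± 0.12 log2 (SE), and VEGFA, the endothelial growth factor, by 0.69 ± 0.11, with adjusted p-values of 0.0315 to 0.0427 by limma. PDGFA was lowest in empty vector replicate 1, at 9.36 against 9.82 and 9.79, and its Gli3T arrays read 10.37 to 10.47. DNAJB4, an HSP40 co-chaperone and the heat shock gene analysed of 15 listed, fell by 1.18 ± 0.13 (adjusted p = 0.0166), from 10.44, 10.57 and 10.88 to 9.47, 9.38 and 9.50. Heat shock and immediate early genes also respond when cells are dissociated and sorted; the part of handling in these differences was not tested. Of the 20 list genes, 6 lower and 0 higher calls were left without empty vector replicate 3, and 9 lower and 3 higher without empty vector replicate 2. Over all 32321 probe sets, 69 calls (39 lower) were left without replicate 3 and 548 (323 lower) without replicate 2. Without any 1 of the Gli3T arrays 0 list genes were called in either direction, where 0 or 1 probe sets were called in all.

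**Figure D4:**
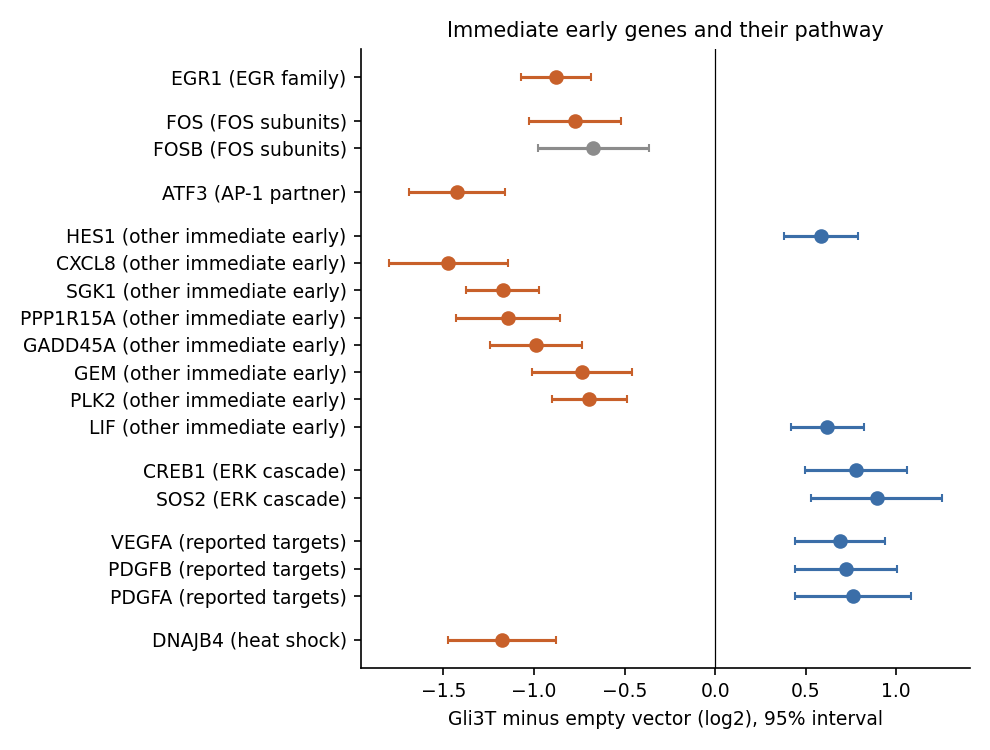
Log2 difference Gli3T minus empty vector, with limma's 95% interval, for EGR1, FOS, FOSB and the other analysed genes of the lists, with the role in brackets. GLI3 and PTCH1, of the hedgehog list, are not drawn. Orange marks genes called lower, blue genes called higher and grey FOSB, which was not called. CREB1, SOS2, LIF, HES1, PDGFA, PDGFB and VEGFA lie to the right of 0.

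The genes whose values ran most like those of each member were found by the root mean square (RMS) difference of the 6 values after each gene was centred on its own mean, among 397 other named genes. All of these had been selected for a difference, so likeness here follows largely from the size and direction of that difference. Nearest to EGR1 were EID2B, at an RMS difference of 0.031 log2, DDIT3, the stress transcription factor CHOP, at 0.043, FAM53C at 0.044, PDRG1 at 0.056 and the ribosomal protein gene RPL27A at 0.065. FAM53C lies near EGR1 on chromosome 5, with 2 protein-coding genes between them in the RefSeq gene order. Of the 15 nearest genes 14 were placed on a chromosome by that table, and FAM53C was the 1 on the chromosome of its member; this was looked up after the genes were known. Nearest to FOS were GZF1 (0.037), LOC147727 (0.038), ZNF317 (0.049), KTI12 (0.050) and ZRSR1 (0.057). FOSB had no profile as close, with TSPYL4 at 0.090, SLC3A2, a subunit of amino acid transporters, at 0.096, the ligand gene TGFB2 at 0.10, ARMCX6 at 0.113 and SNORD5 at 0.117, and 20 unnamed probe sets were nearer than SNORD5. EGR1 and FOS were closer to each other (0.106) than either was to FOSB (0.214 and 0.245). All genes named above as nearest to EGR1 or to FOS were closer than 0.106, so no special likeness of EGR1 and FOS is shown.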

How the data were processed

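Expression was measured on 6 Affymetrix arrays. The deposited values are log2 expression per probe set. The submitters' processing notes list RMA, oligo and limma and give no versions; array annotation and genome build are not given in the sources used here. The value table held 32321 probe sets with array medians of 8.38 to 8.53.

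In the authors' deposited table of 405 genes, the rows of EGR1, FOS and FOSB are among 139 that start with a number under 1 and run on by 1 cell. Set against the value table by probe set, each later cell matched the array headed 1 column to its left, within 0.047 log2. In the 266 other rows the first 5 sample columns lay nearest to their own arrays, with median gaps of 0.0025 to 0.0095 log2. Single cells were less close, with largest gaps of 0.36 to 0.60 log2 by column. The column headed for Gli3T replicate 3 did not match its array (median gap 0.818). The value table, aligned for all arrays, was therefore used, and the other table gave gene symbols (398 of its probe sets matched). Its unheaded column of values (1 column) was not used.

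Gli3T was compared with empty vector in limma 3.58.1 (R 4.3.3) over all probe sets, without a block, with Benjamini-Hochberg adjustment; a call is an adjusted p under 0.05. Standard errors are limma's moderated ones. Pairs of genes were compared with an exact permutation test (SciPy 1.17.1, Python 3.11.15, pandas 2.3.3), with 95% intervals from the pooled spread of the log ratios. Symbols were updated through RefSeq GRCh38.p14. The fit was also run on simulated data. No outcome of that run is given, and nothing is concluded from it about the uneven spread of these arrays. Figures used matplotlib 3.10.9.

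The members and the 11 lists were chosen with earlier results of these data known. Genes named were the 3 members, GLI3, PTCH1, the called genes of each list, and the 5 named genes nearest to each member. The plan was to name at most 6 called genes of a list, those with the largest differences, and LIF was named beyond it. The genes under the heading Other observations were added after their values had been seen. Alternatives were a replicate block, array weights, a mean trend, further normalisation, filters, another threshold, the deposited table's cells and leaving out each array. The number of arrays limits the precision. Some probe sets were not analysed here.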

Additional observations from a re-analysis of the deposited data

How the results depend on the processing

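The differences of EGR1, FOS and FOSB stayed negative in all settings run, from -0.91 to -0.56 log2, and the calls did not stay. As the groups did not overlap, leaving out an array could not turn a direction. EGR1 (-0.88) and FOS (-0.77) missed the stricter threshold of 0.01. FOS (-0.77) missed 0.05 with the replicate block (adjusted p = 0.0635) and, at -0.72, with arrays centred on their median (0.0504). FOSB passed with array weights (-0.62), a mean trend (-0.67), centring (-0.62), probe sets at or above the median mean (-0.67) and only probe sets with a gene symbol (-0.67). The last setting holds only genes selected for a difference, so all 398, 136 of them lower, passed by construction. With array weights, empty vector replicate 2 had a weight of 4.46, against 0.133 and 0.372 for replicates 1 and 3. Every result of that setting thus rested, for the empty-vector group, mainly on replicate 2. Leaving out an array gave -0.91 to -0.84 for EGR1, -0.87 to -0.70 for FOS and -0.75 to -0.56 for FOSB. The deposited table's own cells, 3 against 2 arrays, gave -0.90, -0.80 and -0.63.

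The 798 calls, 344 of them lower, became 240 and 189 with the replicate block, 7104 and 3994 with array weights, 1292 and 548 with a mean trend and 31 and 19 at 0.01. Probe sets at or above the median mean gave 1446 calls, and centring gave 200 lower calls of 559 in all. Leaving out an array gave 0 to 2178 calls and 0 to 1127 lower calls. Of the list genes, 0 to 12 were then called lower and 0 to 8 higher. The block left 1 list gene called higher, and the threshold of 0.01 left 3 lower and 0 higher. The cause of these shifts was not tested. The deviations of same-numbered arrays from their group means had correlations of -0.30, -0.14 and 0.04. With 3 arrays per group, deviations within a group depend on each other, so these values cannot decide whether the numbers pair the arrays. Signal over background was not known.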

Other observations

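The following genes act on signals from receptors, most of them on the route through RAS and ERK on which immediate early transcription depends. They were picked from the authors' table after their values had been seen, so their counts show nothing about the route as a whole. Among them FRS2, an adaptor of fibroblast growth factor receptors, fell by 0.60 ± 0.10 log2 (SE, limma) in the arrays labelled Gli3T, from 10.52, 10.53 and 10.75 to 10.08, 9.95 and 9.98. RIT1, a RAS-related GTPase, fell by 0.60 ± 0.09, and PEA15, which binds ERK and holds it in the cytoplasm, by 0.60 ± 0.07. RGS2 and RGS4, which shorten signalling by heterotrimeric G proteins, fell by 1.09 ± 0.16 and 0.91 ± 0.11. RGS2 read 8.51, 8.85 and 9.15 in the empty-vector arrays, and 7.79, 7.67 and 7.79 in the Gli3T arrays.

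Others of this kind rose. RASA1, a GTPase-activating protein that switches RAS off, rose by 0.66 ± 0.10, with the Gli3T arrays between 10.45 and 10.47. MKNK2, a kinase activated by ERK, rose by 0.70 ± 0.08, and ETS2, a transcription factor phosphorylated by ERK, by 0.75 ± 0.09. These genes were called at an adjusted p under 0.05 by limma with all 6 arrays. The listed values are levels of message and say nothing of the activity of ERK.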
